A study of Mus musculus with 50 samples.

Results

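The chemokine ligand genes were read in 50 mammary gland tumors, as the 42 rows of the expression table whose gene symbol begins with Ccl, Cxcl, Cx3cl or Xcl and a number, out of 37701 rows in all. Cxcl9 and Cxcl10 were left out. The 42 rows carry 39 distinct symbols, since Ccl25 has 2 rows and Ccl21c has 3. All mice were p53R270H/+WAPCre females, which carry 1 mutant p53 allele that is released by Cre under the whey acidic protein promoter, so that the mutation arises in mammary epithelium. They were 8 weeks old at the start and received subcutaneous injections every other day of vehicle (the tumors titled Untreated), insulin, glargine, X10 or IGF1, with 10 tumors in each of the 5 groups. X10 and glargine are insulin analogs with altered amino acid sequences, and IGF1 is a related growth factor with its own receptor. A tumor is named below by its group and mouse number, as in vehicle_161. Tumors were collected at 1 cm3, 24 h after the last injection, and the study chose tumors it called EMT-like, with a latency time near the median of their group.

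Chemokines are small secreted or membrane-bound proteins that direct the movement of leukocytes and other cells through G protein-coupled receptors. CC and CXC ligands are named after the spacing of their conserved cysteines, and many lie in gene clusters with partly overlapping receptors. In tumors they draw in monocytes, neutrophils, lymphocytes and dendritic cells, and they are made by leukocytes, fibroblasts, endothelium and the tumor cells themselves.

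Levels are given as RPKM (reads per kilobase of gene length, scaled to library size), so they can be compared between genes. Library sizes recovered from the steps of the RPKM values ranged from 26.6 M to 51.9 M reads (median 40.9 M), and group medians from 35.4 M (X10) to 44.0 M (vehicle). Of the 42 rows, 30 had a mean RPKM of at least 0.5 and were tested. Another 8 rows were below this minimum but above 0 in at least 1 tumor, and 4 rows (the second Ccl25 row and the 3 Ccl21c rows) were at 0 in all tumors. The 8 low rows were Ccl1, Ccl20, Ccl26, Ccl27b, Ccl28, Cxcl15 and the pseudogenes Ccl19-ps1 and Ccl19-ps3. Reads of Ccl21a, Ccl21b and Ccl21c, of Ccl27a and Ccl27b, and of Ccl19 and its pseudogene copies may have been split or lost between near-identical sequences, so their levels are uncertain. As tumors are bulk samples, fewer cells of a type cannot be told apart from less RNA per cell.

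Promoter sequences are printed for 7 members, to show what the CXC ligands of chromosome 5 that varied together share and how CC ligand pairs of chromosomes 8 and 11 compare with them. RefSeq promoters (GRCm38.p6) were found for 25 of the 39 symbols, and 20 of the 30 tested members were among these. Each window covers 250 bases before the RefSeq start site, and motifs were sought in all of them. The printed sequences leave out bases that GENCODE M21 places inside the gene. This left 246 bases for Cxcl1, 222 for Cxcl2 and 156 for Ccl22. Capitals mark matches to the NF-kappaB consensus site and to TATAAA, the core of the TATA box, on either strand.
Cxcl1, chr5:90890995-90891240, + strand: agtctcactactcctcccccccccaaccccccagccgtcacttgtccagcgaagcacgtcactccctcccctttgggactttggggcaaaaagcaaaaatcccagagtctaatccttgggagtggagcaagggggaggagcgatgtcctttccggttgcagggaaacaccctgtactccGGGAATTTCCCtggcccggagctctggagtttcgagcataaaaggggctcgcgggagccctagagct
Cxcl2, chr5:90903649-90903870, + strand: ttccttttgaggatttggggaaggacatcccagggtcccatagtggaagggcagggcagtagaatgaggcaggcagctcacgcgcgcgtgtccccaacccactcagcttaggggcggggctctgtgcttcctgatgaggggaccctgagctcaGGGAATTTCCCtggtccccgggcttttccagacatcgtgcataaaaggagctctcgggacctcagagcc
Cxcl3, chr5:90785851-90786100, + strand: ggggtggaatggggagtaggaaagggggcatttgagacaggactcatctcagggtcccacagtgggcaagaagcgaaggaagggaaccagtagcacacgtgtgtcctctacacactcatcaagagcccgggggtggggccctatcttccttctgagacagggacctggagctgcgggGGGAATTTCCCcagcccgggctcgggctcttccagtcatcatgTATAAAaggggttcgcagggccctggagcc
Ccl22, chr8:94745434-94745589, + strand: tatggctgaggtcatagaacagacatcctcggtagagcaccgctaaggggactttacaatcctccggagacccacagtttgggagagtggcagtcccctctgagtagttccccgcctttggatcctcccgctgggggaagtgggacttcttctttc
Ccl17, chr8:94810203-94810452, + strand: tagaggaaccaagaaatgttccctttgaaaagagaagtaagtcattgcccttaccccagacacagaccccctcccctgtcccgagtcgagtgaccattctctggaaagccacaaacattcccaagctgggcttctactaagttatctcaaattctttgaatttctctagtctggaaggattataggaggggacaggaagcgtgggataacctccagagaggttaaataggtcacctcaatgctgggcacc
Ccl12, chr11:82101595-82101844, + strand: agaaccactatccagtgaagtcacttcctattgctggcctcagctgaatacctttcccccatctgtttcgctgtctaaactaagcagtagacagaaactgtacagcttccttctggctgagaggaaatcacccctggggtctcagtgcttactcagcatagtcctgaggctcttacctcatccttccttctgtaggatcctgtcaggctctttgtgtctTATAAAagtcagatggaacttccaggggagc
Ccl8, chr11:82114935-82115184, + strand: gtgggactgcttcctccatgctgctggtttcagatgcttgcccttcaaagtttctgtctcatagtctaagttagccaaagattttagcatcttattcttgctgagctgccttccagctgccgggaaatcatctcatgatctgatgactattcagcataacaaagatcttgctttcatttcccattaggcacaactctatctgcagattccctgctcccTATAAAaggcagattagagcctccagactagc

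The promoters of Cxcl1, Cxcl2 and Cxcl3 share the 11-base run gggaatttccc, which reads as an NF-kappaB site on both strands. This run was present in 12 of the 32841 promoter windows of 250 bases, or 0.0365%. Among the 25 members with a window, only these 3 held it. The run begins 71 bases before the RefSeq start site in Cxcl1, 97 in Cxcl2 and 73 in Cxcl3. These distances include the bases cut from the ends of the printed Cxcl1 and Cxcl2 sequences, so they differ from the positions seen there. Any match to the NF-kappaB consensus was found in 6 of the 31 windows of members, some of which have more than 1 window (19.4%), those of Ccl1, Ccl20, Ccl9, Cxcl1, Cxcl2 and Cxcl3, and in 7.25% of all windows. TATAAA was found in 9 of the 31 windows (29.0%) and in 12.4% of all windows. It lies 31 bases before the start site in Ccl12 and 32 in Ccl8, which are neighbours on chromosome 11, and 30 in Cxcl3. Neither motif was found in the windows of Ccl17 and Ccl22. An AP-1 motif (TGANTCA) was found in 3 of the 31 windows and 6.75% of all windows, and an interferon response motif (GAAA, 2 free bases, GAAA) in 2 of the 31 and 2.98%. These matches describe letters and were not tested as binding sites.

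The ligands were abundant and differed strongly between tumors. The summed level of all members was between 577 and 2109 RPKM per tumor, with a median of 964. Ligands of monocytes and macrophages made up a median of 55.0% of this sum (25.7 to 75.7%), stromal and epithelial ligands 14.6% (4.09 to 40.6%), membrane-anchored ligands 9.65% (5.23 to 36.7%) and neutrophil-attracting CXC ligands 4.57% (0.152 to 46.1%). The highest single ligand was Ccl6 in 18 tumors, Cxcl14 in 12, Ccl8 in 6, Cxcl3 in 4, Ccl2 in 3, Ccl9 and Cx3cl1 in 2 each, and Ccl12, Ccl21a and Ccl7 in 1 each. The SD over the 50 tumors on the log2(RPKM + 0.5) scale had a median of 1.12 over the 30 tested members and of 0.42 over all 16733 tested genes. The SD of 25 of the 30 members was above the 90th percentile of all tested genes (0.91). Treatment group accounted for a median of 7.24% of a member's variance, beside 9.29% for all tested genes.

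**Figure D1:**
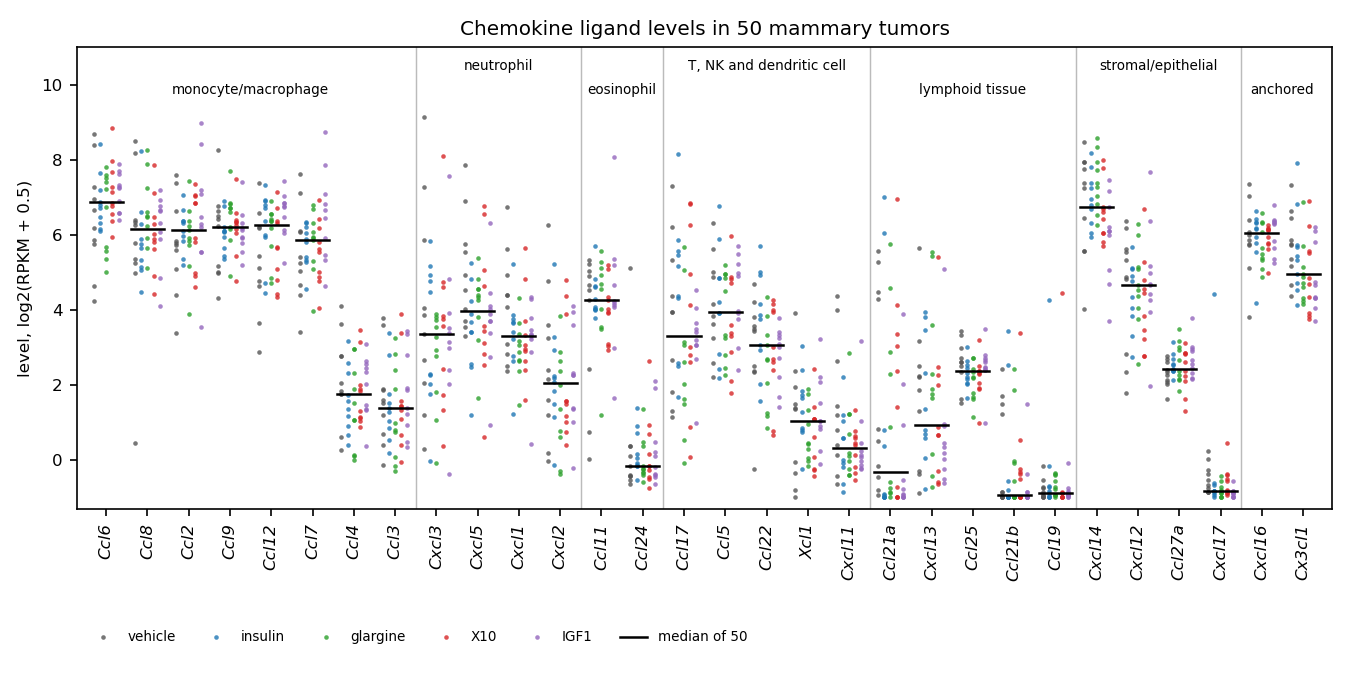
Level of the 30 tested chemokine ligands in each of the 50 tumors on a log2(RPKM + 0.5) scale, with 1 point per tumor coloured by treatment group and a black bar at the median of all 50. Ligands are ordered by role and mean level, and Ccl21a (SD 2.56), Cxcl3 (SD 2.05) and Ccl17 (SD 1.95) have the largest SDs.

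Ligands of monocytes and macrophages formed the most abundant role. Ccl6, a rodent CC ligand that acts through Ccr1, had the highest mean of all members, with 18.3 RPKM in the lowest tumor, a median of 116.3 and 461 in the highest. Ccl9, a close relative on chromosome 11, had a lowest level of 19.4 RPKM, a median of 72.8 and a highest of 307. Ccl2, the principal ligand of the monocyte receptor Ccr2, was between 9.86 and 501 RPKM with a median of 68.8. The tumor IGF1_128 had the highest Ccl2 level and vehicle_174 the lowest.

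Ccl7 and Ccl12, which also act on Ccr2, had medians of 58.1 and 75.6 RPKM. Ccl7 was between 10.1 and 422 RPKM, and Ccl12 was between 6.78 and 173 RPKM. Both were lowest in the tumor vehicle_161. Ccl8, which in the mouse acts through Ccr8, had a median of 70.9 RPKM and a highest level of 359 RPKM in vehicle_195, while vehicle_161 had 0.861 RPKM. Ccl3 and Ccl4, inflammatory ligands released by activated leukocytes, were much lower, with medians of 2.11 and 2.89 RPKM. The lowest tumor was glargine_67 for both of them.

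The neutrophil-attracting ligands Cxcl1, Cxcl2, Cxcl3 and Cxcl5 act on Cxcr2, and their levels were skewed towards few tumors. The highest 5 tumors held 71.0% of the summed Cxcl3 level, 48.5% of Cxcl2, 45.5% of Cxcl5 and 38.0% of Cxcl1. Cxcl3 had a median of 9.79 RPKM but was 0.278 in the lowest tumor (IGF1_158) and 558 in the highest (vehicle_174). Cxcl5 had a median of 15.0 RPKM with a range of 1.03 to 231, Cxcl1 a median of 9.43 with a range of 0.850 to 106, and Cxcl2 a median of 3.63 with a range of 0.266 to 76.1. All 4 were highest in vehicle_174. Cxcl15, a lung ligand, reached 1.24 RPKM at most and was not tested.

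Of the T cell, NK cell and dendritic cell ligands, Ccl17 and Ccl22 act on Ccr4 and are typical products of dendritic cells. Ccl17 had a median of 9.37 RPKM, with 0.448 in the lowest tumor (glargine_73) and 286 in the highest (insulin_18). Ccl22 had a median of 7.80 RPKM, with 0.350 in vehicle_161 and 51.1 in insulin_18. Ccl5, which activated T and NK cells release, had a median of 14.9 RPKM and a range of 2.95 to 109. Xcl1, an NK and CD8 T cell product, had a median of 1.55 RPKM, with 0 in vehicle_161 and 14.5 in vehicle_186. Cxcl11, a Cxcr3 ligand annotated as a polymorphic pseudogene in GENCODE M21, had a median of 0.754 RPKM and a highest level of 20.2 in vehicle_186. Ccl1 and Ccl20 were under the minimum.

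Lymphoid tissue ligands were low in most tumors and high in a few. Ccl21a, a Ccr7 ligand of lymphatic vessels and lymph nodes, was above 0 in 39 tumors, with a median of 0.311 RPKM and a highest level of 129. Ccl19, the other Ccr7 ligand, was above 0 in 37 tumors, with a median of 0.0400 RPKM. In the tumors X10_105 and insulin_8, Ccl19 was at 21.3 and 18.6 RPKM, and the highest of the other 48 tumors had 0.443. Ccl21a was at 123 and 129 RPKM in this pair, and the highest of the other 48 was insulin_18 with 66.1. The pair also stood apart in the 6 B cell markers, among them Ms4a1, Cd79a and Cd79b, whose summed level was 246 RPKM in X10_105 and 152 in insulin_8, while the next tumor had 17.8. The summed T and NK cell markers were also highest in this pair (214 RPKM in insulin_8 and 168 in X10_105, median of all tumors 36.1). The part of the T and NK cell markers in these ligand levels was not tested. Cxcl13, the Cxcr5 ligand of B cell follicles, had a median of 1.40 RPKM and was highest in vehicle_186 (49.9), with 42.1 in X10_105. Ccl25, a thymus and gut ligand, had 1.47 to 10.7 RPKM and an SD of 0.56 on the log2 scale.

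Among stromal and epithelial ligands, Cxcl14, a CXC ligand of epithelium and stroma, was between 12.5 RPKM (IGF1_158) and 381 RPKM (glargine_70) with a median of 106.6. Cxcl12, the stromal ligand of Cxcr4 and Ackr3, had a median of 24.9 RPKM, with 2.92 in vehicle_174 and 203 in IGF1_158. Ccl27a, a skin ligand, had the smallest SD of the tested members (0.47), with 1.99 to 13.2 RPKM. Cxcl17, a mucosal ligand, was at 21.1 RPKM in insulin_13 and had a median of 0.0660 RPKM. Both membrane-anchored ligands were abundant in every tumor. Cxcl16, the ligand of Cxcr6, was between 13.6 and 163 RPKM with a median of 65.2, and Cx3cl1 (fractalkine), the ligand of Cx3cr1, was between 12.5 and 241 RPKM with a median of 30.5. The eosinophil ligand Ccl11 had a median of 18.7 RPKM and 266 in IGF1_158, whereas Ccl24 had a median of 0.396 RPKM and 33.8 in vehicle_195.

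A small number of tumors took many of the extremes. Vehicle_161 was the single lowest tumor for 8 tested members (Ccl11, Ccl12, Ccl22, Ccl7, Ccl8, Cxcl13, Cxcl16 and Xcl1), and its summed level of T and NK cell markers (3.51 RPKM, median of all tumors 36.1) and of dendritic cell markers (67.8 RPKM, median 1185, mainly H2-Aa and H2-Ab1) was also the lowest. In the same tumor Cxcl3 was at 154.9 RPKM (median 9.79) and Cxcl5 at 117.7 RPKM (median 15.0). Its summed neutrophil markers were at 589 RPKM (median 106.5). Vehicle_174 was the highest for 6 members (Ccl4, Cxcl1, Cxcl16, Cxcl2, Cxcl3 and Cxcl5), with the highest summed neutrophil markers (2674 RPKM, median 106.5) and epithelial markers (5098 RPKM, median 284). IGF1_158 was the highest for Ccl11, Ccl7 and Cxcl12 and the lowest for Cxcl1, Cxcl14 and Cxcl3, with the lowest epithelial marker sum (9.58 RPKM) and the highest macrophage marker sum (3204 RPKM, median 1551). The part of these cell type markers in the ligand levels was not tested.

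To ask whether chronic treatment with an insulin-like ligand changed chemokine RNA, each treatment was compared with vehicle, glargine and X10 with insulin, and the X10 and IGF1 tumors with all others. No member passed an adjusted p under 0.05 (limma over all 16733 tested genes, Benjamini-Hochberg) in any of the 7 comparisons or in the test of any difference among the 5 groups. The share of all tested genes that passed against vehicle was 0% in the insulin group, 0% in the glargine group, 0.0657% in the X10 group and 0.00598% in the IGF1 group. It was 0.155% for X10 plus IGF1 against the other groups, 0% for glargine and 0.102% for X10 against insulin, and 0.102% for any difference. At an unadjusted p under 0.05 there were 3 of 30 members for insulin against vehicle (11.1% of all tested genes), 1 for glargine (6.23%), 1 for X10 (11%) and 5 for IGF1 (8.84%). For X10 and IGF1 against the others there was 1 member (10.5%), for glargine against insulin 2 (3.96%), for X10 against insulin 0 (11.3%) and for any difference 2 (13.1%). The 4 comparisons with vehicle share the same vehicle tumors.

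Median log2 differences of the 30 members from vehicle were 0.03 (insulin), -0.31 (glargine), -0.15 (X10) and -0.07 (IGF1), where the medians of all tested genes were 0.03, 0.02, -0.03 and 0.02. The data limit the differences only loosely. The 95% interval was within a log2 difference of 1 either way for 6 of 30 members in the insulin group, 4 in the glargine group, 6 in the X10 group and 6 in the IGF1 group, and within 2 for 26, 23, 25 and 24 of them. The half-width of the interval had a median of 0.97 on the log2 scale in these comparisons.

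**Figure D2:**
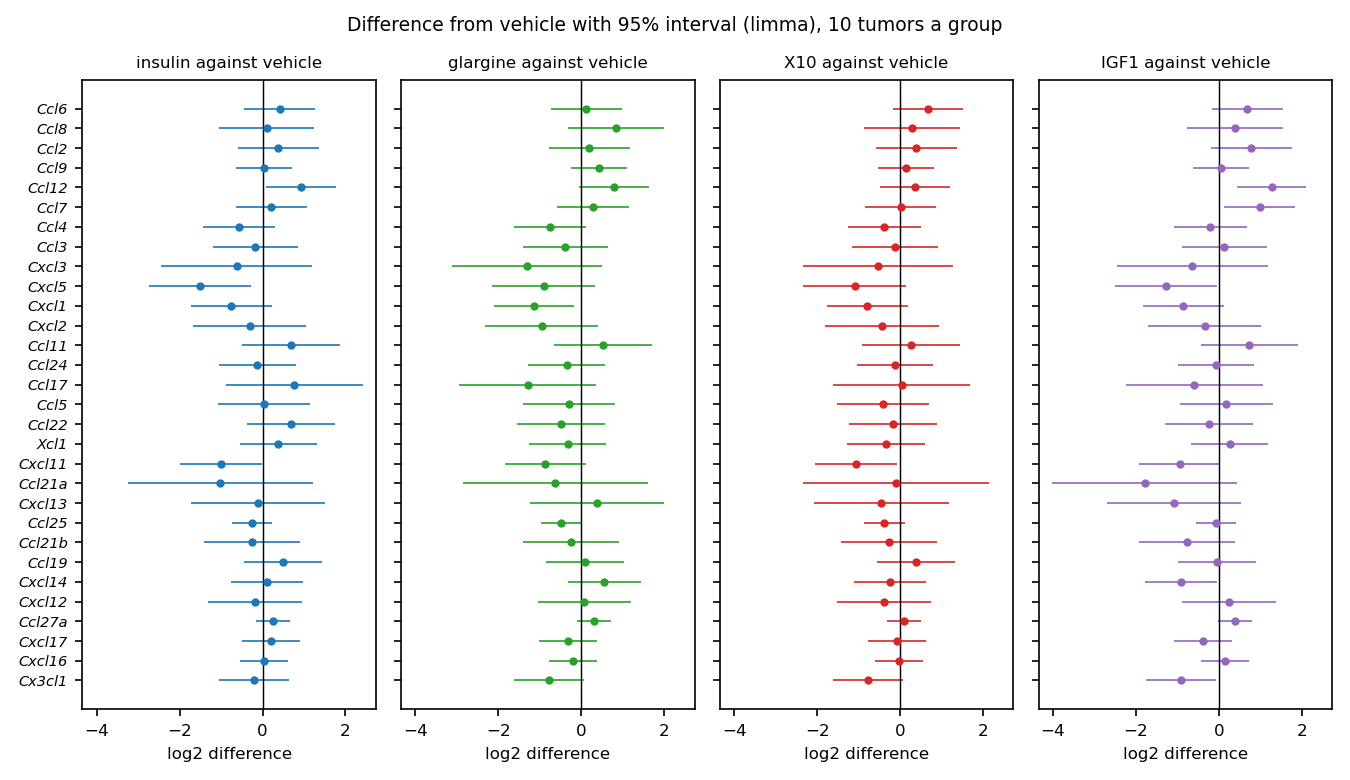
Log2 difference from vehicle of the 30 tested ligands in the insulin, glargine, X10 and IGF1 groups, 10 tumors each, with limma's 95% intervals as bars. No difference passed an adjusted p under 0.05, and Ccl12 in the IGF1 group (1.27) had the smallest unadjusted p.

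Ccl12 had the smallest unadjusted p in a comparison with vehicle. Its level had a median of 38.5 RPKM in the vehicle group (6.78 to 167) and of 107.2 RPKM in the IGF1 group (37.4 to 173), and the groups overlapped. The log2 difference was 1.27 ± 0.42 (SE, n = 10 per group, 95% interval 0.43 to 2.12, limma p = 0.00385, adjusted p = 0.358), and 9 of 10 IGF1 tumors were above the vehicle mean. Ccl7 differed by 0.99 ± 0.43 (adjusted p = 0.479), with medians of 39.5 RPKM in the vehicle group and 93.9 RPKM in the IGF1 group. For insulin, Ccl12 had a median of 93.0 RPKM and a log2 difference of 0.93 ± 0.42 (limma adjusted p = 0.404). Of 7 macrophage markers, 3 in the IGF1 group (8.84% of all tested genes), 4 in the insulin group (11.1%), 1 in the glargine group (6.23%) and 1 in the X10 group (11%) were above vehicle at an unadjusted p under 0.05, none passed an adjusted p under 0.05, and their sum was between 683 and 2309 RPKM in vehicle, 727 and 3082 in insulin and 1067 and 3204 in IGF1 tumors. Their part in the Ccl12 and Ccl7 differences was not tested.

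Of the neutrophil-attracting ligands, Cxcl5 had the smallest p of all members in the insulin group and Cxcl1 in the glargine group. Cxcl5 had a median of 26.3 RPKM in the vehicle group (9.38 to 231) and of 11.2 RPKM in the insulin group (1.81 to 37.2), a log2 difference of -1.51 ± 0.61 (limma adjusted p = 0.366). Cxcl1 had a median of 18.4 RPKM in the vehicle group (4.70 to 106) and of 7.33 RPKM in the glargine group (2.26 to 19.2), a log2 difference of -1.14 ± 0.48 (limma adjusted p = 0.789). Both pairs of groups overlapped. The sum of the 6 neutrophil markers was between 33.3 and 2674 RPKM in vehicle, 20.8 and 282 in insulin and 17.3 and 329 in glargine tumors, and its part in these values was not tested. Cxcl11 was below the vehicle mean of log2 levels in all 10 X10 tumors, with medians of 1.51 RPKM in vehicle (0.138 to 20.2) and 0.854 RPKM in X10 tumors (0.193 to 2.04), a log2 difference of -1.06 ± 0.49 (limma adjusted p = 0.417). The sum of T and NK cell markers was between 3.51 and 124.2 RPKM in vehicle and between 14.8 and 168 RPKM in X10 tumors. Ccl25 had a log2 difference of -0.48 ± 0.24 in the glargine group (limma adjusted p = 0.789), with medians of 5.63 RPKM in vehicle and 4.11 RPKM in glargine tumors.

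Cxcl14 had the smallest unadjusted p in the comparison of X10 plus IGF1 tumors with all others. Its median was 90.8 RPKM in the X10 group (51.5 to 252) and 68.1 RPKM in the IGF1 group (12.5 to 175), beside 157 RPKM in vehicle (15.6 to 352), 117 in insulin (60.6 to 291) and 159 in glargine tumors (76.0 to 381), and all groups overlapped. The log2 difference was -0.79 ± 0.28 (n = 20 and 30, 95% interval -1.36 to -0.23, limma p = 0.00663, adjusted p = 0.231), with 4 of 20 tumors above the mean of the others. Cx3cl1 differed by -0.51 ± 0.27 in the same comparison (limma adjusted p = 0.519) and by -0.77 ± 0.42 in X10 tumors against vehicle (adjusted p = 0.502). Of the 6 fibroblast markers, 2 were lower in X10 plus IGF1 tumors at an unadjusted p under 0.05 (10.5% of all tested genes). Their sum was between 2601 and 31420 RPKM in vehicle, 4801 and 21669 in insulin, 3397 and 30257 in glargine, 6078 and 13987 in X10 and 2916 and 27247 in IGF1 tumors, and its part was not tested. The Cx3cl1 medians were 52.9 RPKM in vehicle, 41.3 in insulin, 27.5 in glargine, 27.0 in X10 and 22.3 in IGF1 tumors. Of the 6 epithelial markers, 3 were below vehicle in the IGF1 group (8.84% of all tested genes) and 0 in the X10 group (11%) at an unadjusted p under 0.05, with median log2 differences of -1.36 and -0.05. For X10 plus IGF1 against all others it was 0 of 6, with a median of -0.40. Their sum was between 11.2 and 5098 RPKM in vehicle, 57.9 and 4151 in X10 and 9.58 and 623 in IGF1 tumors, and its part was not tested.

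Glargine and X10 tumors were also compared with insulin tumors, to ask whether a change in the insulin molecule changed the ligands. Ccl17 had a median of 27.8 RPKM in the insulin group (2.71 to 286) and of 4.57 RPKM in the glargine group (0.448 to 50.7), a log2 difference of -2.06 ± 0.82 (95% interval -3.70 to -0.41, limma p = 0.0153, adjusted p = 0.990). Ccl22 had medians of 13.5 and 5.89 RPKM and a log2 difference of -1.18 ± 0.53 (limma adjusted p = 0.990). The sum of the 6 dendritic cell markers had a median of 2412 RPKM in insulin (167 to 5232) and of 836 RPKM in glargine tumors (299.9 to 3128), with no marker past an unadjusted p under 0.05, and its part was not tested. This sum is mainly the level of H2-Aa and H2-Ab1, whose means over all tumors were 855 and 852 RPKM. The other markers of the list had means of at most 3.94 RPKM. Of 4 adipocyte markers, 2 were higher in glargine than in insulin tumors (3.96% of all tested genes) and 2 higher than in vehicle tumors (6.23%) at an unadjusted p under 0.05. Their summed level had a median of 179 RPKM in glargine, 43.1 in insulin and 50.6 in vehicle tumors. With muscle, adipocyte and B cell marker levels as covariates the log2 difference was -2.30 for Ccl17 and -1.37 for Ccl22 (limma adjusted p = 0.873 for both). For Ccl17, 2 of 10 glargine tumors were above the insulin mean of log2 levels, and the groups overlapped in both genes. For X10 against insulin the smallest p-values were those of Ccl22, with a log2 difference of -0.85 ± 0.53, and Xcl1, with -0.72 ± 0.46 (limma adjusted p = 0.561 and 0.574). The 95% interval of glargine against insulin was within a log2 difference of 1 for 5 of 30 members, and that of X10 against insulin for 7.

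The genes around the ligands gave the same count of 0. No gene of the chemokine receptor list (12 of 18 tested), the atypical receptors (4 of 5), the platelet ligands Pf4 and Ppbp, or the NF-kappaB factors, inducers and feedback genes (13 of 13) passed an adjusted p under 0.05 in any of these comparisons. At an unadjusted p under 0.05, 4 of the 12 receptors were above vehicle in the insulin group (11.1% of all tested genes passed in either direction), 1 was above and 1 below it in the IGF1 group (8.84%), and 1 was lower in glargine than in insulin tumors (3.96%). Of the 13 NF-kappaB genes, 2 were above and 1 below vehicle in the insulin group (11.1% of all tested genes), 1 below in the glargine group (6.23%), 2 below in the X10 group (11%) and 1 above and 2 below in the IGF1 group (8.84%), and 2 were lower in X10 than in insulin tumors (11.3%). No gene of the 11 cell type marker lists passed either, with a smallest adjusted p of 0.176 in the macrophage list.

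Some ligands of 1 gene cluster varied together across the 50 tumors and others did not. Of 32 pairs within a cluster, 11 had a Pearson r above 0.5 and 4 an r below 0, with a median of 0.42. These pairs were chosen after the correlations had been seen, so they are given as a description of the log2 levels with no test. The CXC ligands Cxcl5, Cxcl3, Cxcl1 and Cxcl2 lie in this order within 146.6 kb of chromosome 5 (90759360 to 90905938, GRCm38), and their 6 pairs had a Pearson r between 0.67 (Cxcl2 and Cxcl5) and 0.85 (Cxcl1 and Cxcl2), with the same sign in all 5 groups. Ccl2, Ccl7, Ccl11, Ccl12 and Ccl8 lie within 81.2 kb of chromosome 11. Ccl2 and Ccl7 had an r of 0.84 and Ccl7 and Ccl12 of 0.66, whereas Ccl2 and Ccl11 had 0.10 and Ccl2 and Ccl8 0.23. Of the other chromosome 11 group (Ccl5, Ccl9, Ccl6, Ccl3 and Ccl4), Ccl3 and Ccl4 had an r of 0.90, Ccl4 and Ccl6 0.48 and Ccl6 and Ccl9 0.12, while Ccl5 had -0.14 with Ccl3, -0.14 with Ccl9 and 0.03 with Ccl4. On chromosome 4, Ccl27a had 0.14 with Ccl19 and 0.13 with Ccl21a.

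On chromosome 8, neighbouring ligands also differed. Ccl22, Cx3cl1 and Ccl17 lie in this order within 66.4 kb (94745590 to 94812036). The outer genes Ccl22 and Ccl17 had an r of 0.88 (rho 0.90), with the same sign in all 5 groups, while Cx3cl1 between them had an r of 0.10 with Ccl22 and 0.11 with Ccl17. Over all 435 pairs of tested members the median r was 0.06, with 30 pairs above 0.5, and the highest value (0.94) was that of Ccl21a and Ccl21b, whose reads are hard to tell apart.

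**Figure D3:**
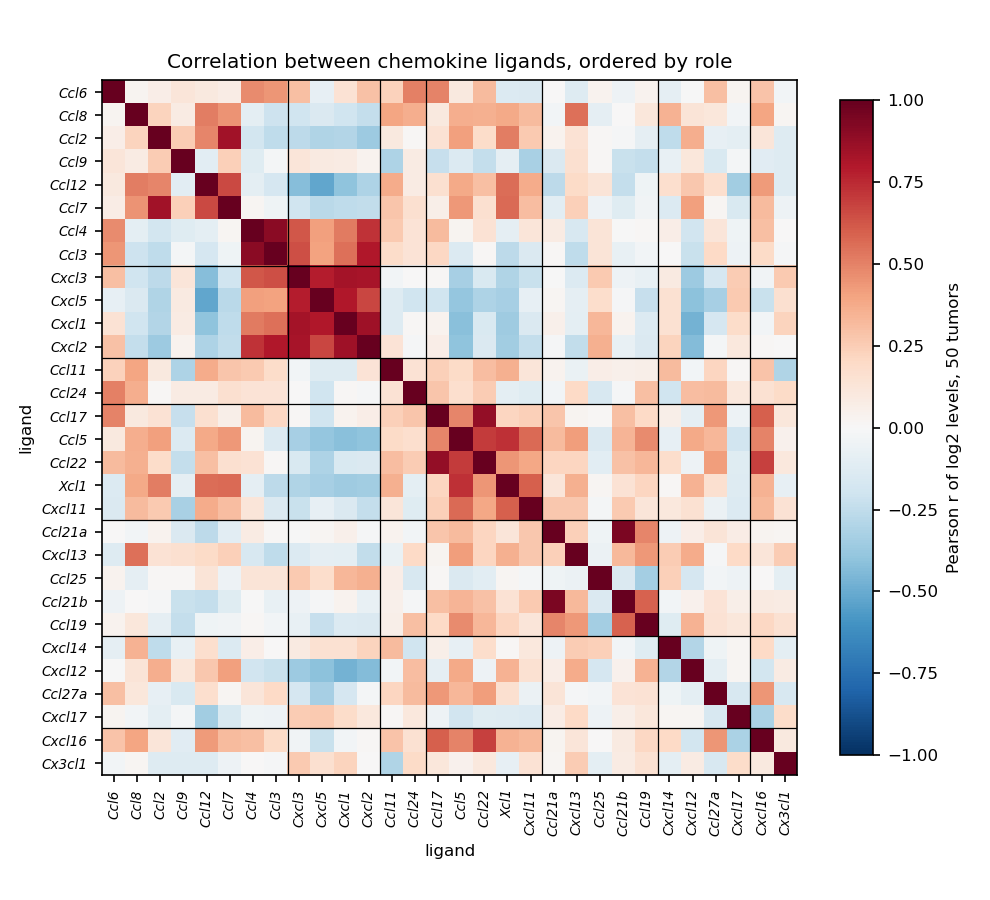
Pearson r of log2 levels over 50 tumors for each pair of the 30 tested ligands, ordered by role, from blue (-1) to red (1), with lines between roles. Red blocks lie at Cxcl1, Cxcl2, Cxcl3 and Cxcl5 with Ccl3 and Ccl4, at Ccl2, Ccl7 and Ccl12, and at Ccl17 with Ccl22 (0.88) and Ccl5 with Xcl1 (0.73).

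To ask how ligands relate to their receptors, 16 ligand and receptor pairs with both genes above the minimum level were tested over the 50 tumors (Pearson r and Spearman rho of log2 levels, two-sided permutation test, Benjamini-Hochberg over the 16 pairs for each measure). The r of 11 pairs passed an adjusted p under 0.05, 10 of them positive, and 10 passed on both measures. Without Ccl19, which was high in only 2 tumors, 10 of 15 passed, 9 of them on both. These still include Cxcl13 with Cxcr5, a receptor that reached the minimum level only through its highest tumor. When the values of all 16 pairs were centred within treatment groups, 11 passed. The Cxcr2 ligands were closest to their receptor. Cxcl1 and Cxcr2 had an r of 0.86 (0.82 without the 2 tumors farthest from the median Cxcl1 level, permutation p = 1e-05, the smallest that the permutations can give) and a rho of 0.75, Cxcl5 and Cxcr2 an r of 0.86 (0.83 without 2 tumors) and Cxcl2 and Cxcr2 an r of 0.75 (0.70). Ccl2 and Ccr2 had an r of 0.68 (0.62 without 2 tumors) and a rho of 0.57, and Ccl7 and Ccr2 an r of 0.57 (0.45). Within the insulin group the r with Ccr2 was -0.21 for Ccl2 and -0.06 for Ccl7, and it was positive in the other 4 groups for both.

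Cxcl13 and Cxcr5 passed on both measures, but Cxcr5 reached the minimum level only through its highest tumor, so no r is given. Cxcr5 itself was low, with a mean of 0.546 RPKM, a median of 0.160 and 10.46 in the highest tumor. Ccl19 and Ccr7 passed too, but Ccl19 reached the minimum level only through X10_105 and insulin_8, so no r is given. Cxcl16 and Cxcr6 had an r of 0.37 (permutation p = 0.00739), which was 0.30 without 2 tumors (permutation p adjusted over the pairs 0.0568). Ccl21a and Ccr7 had an r of 0.33 but a rho of 0.09 (adjusted permutation p = 0.64), and an r of 0.12 without 2 tumors, so this relation rests on those tumors. Cxcl12 was inversely related to its scavenging receptor Ackr3, with an r of -0.42 (-0.44 without 2 tumors, and 0.23 within the vehicle group) and a rho of -0.38. Among the pairs that did not pass, Cx3cl1 and Cx3cr1 had an r of -0.00 (permutation p = 0.993), Ccl3 and Ccr1 0.05, Cxcl12 and Cxcr4 -0.21 and Ccl25 and Ccr9 -0.28. Of the pairs listed, 7 more were not tested because the receptor or the ligand was below the minimum level, such as Ccl17 and Ccl22 with Ccr4 (mean 0.189 RPKM) and Ccl20 with Ccr6. The list of pairs was not complete, and Cxcl3 with Cxcr2, Ccl12 with Ccr2 and Cxcl11 with Cxcr3 were not in it.

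Ligands were then set against marker lists of the cells that make or follow them, with a list scored by averaging the z-scores of its genes. Of 27 pairs, 21 passed on Pearson r, all positive, and 20 on both measures (permutation test, adjusted over the 27 pairs). Without Ccl19 and Cxcl17, which few tumors carried over the minimum level, 20 of 25 passed and 19 on both. Neutrophil markers had an r of 0.83 with Cxcl3 (0.76 without the 2 farthest tumors, rho 0.81), 0.80 with Cxcl1, 0.80 with Cxcl2 and 0.75 with Cxcl5. T and NK cell markers had an r of 0.84 with Ccl5 (0.80, rho 0.81), 0.80 with Xcl1 and 0.65 with Cxcl11. Dendritic cell markers had an r of 0.79 with Ccl22 (0.73, rho 0.73) and 0.67 with Ccl17. Each of these had the smallest permutation p that can be given (1e-05).

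Monocyte ligands differed in their r with macrophage markers. Ccl12 had an r of 0.78 with them (0.75 without 2 tumors, rho 0.80), Ccl7 0.65, Ccl2 0.54 (-0.20 within the insulin group) and Cxcl16 0.54, whereas Ccl6 had 0.25 (adjusted permutation p = 0.0920, with a rho of 0.30 and adjusted permutation p = 0.0449), Ccl9 0.22 (0.145), Ccl3 -0.14 (0.348) and Ccl4 -0.11 (0.484). The difference between these correlations was not tested. With Cd68, a gene of the macrophage list, Ccl9 had an r of 0.79. Ccl8 had an r of 0.41, and 0.27 without 2 tumors (permutation p = 0.0603). Lymphatic endothelial markers had an r of 0.77 with Ccl21a (0.69 without 2 tumors, rho 0.63), and epithelial markers 0.53 with Cx3cl1 (0.55, rho 0.45, and -0.16 within the insulin group). Fibroblast markers had an r of 0.48 with Ccl11 and 0.45 with Cxcl14 (0.33 without 2 tumors, rho 0.32, and -0.24 within the glargine group) but 0.04 with Cxcl12 (permutation p = 0.801). Cxcl12 and blood endothelial markers had an r of 0.32, which was 0.21 without 2 tumors (permutation p = 0.149), and a rho of 0.25 (adjusted permutation p = 0.0960). Cxcl17 reached the minimum level only through insulin_13 (its mean was 0.547 RPKM with and 0.128 RPKM without that tumor), so its r with epithelial markers is not given.

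For Ccl19 and the B cell markers the tumors fell into a pair (X10_105 and insulin_8) and the other 48, so no r over all 50 is given. Within the 48, where Ccl19 was at most 0.443 RPKM and so under the minimum level, its r was 0.66. Cxcl13 and B cell markers had an r of 0.58 over all 50 tumors and of 0.74 within the 48, and Ccl21a and B cell markers 0.47 and 0.11. This subset was chosen after the data were seen.

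**Figure D4:**
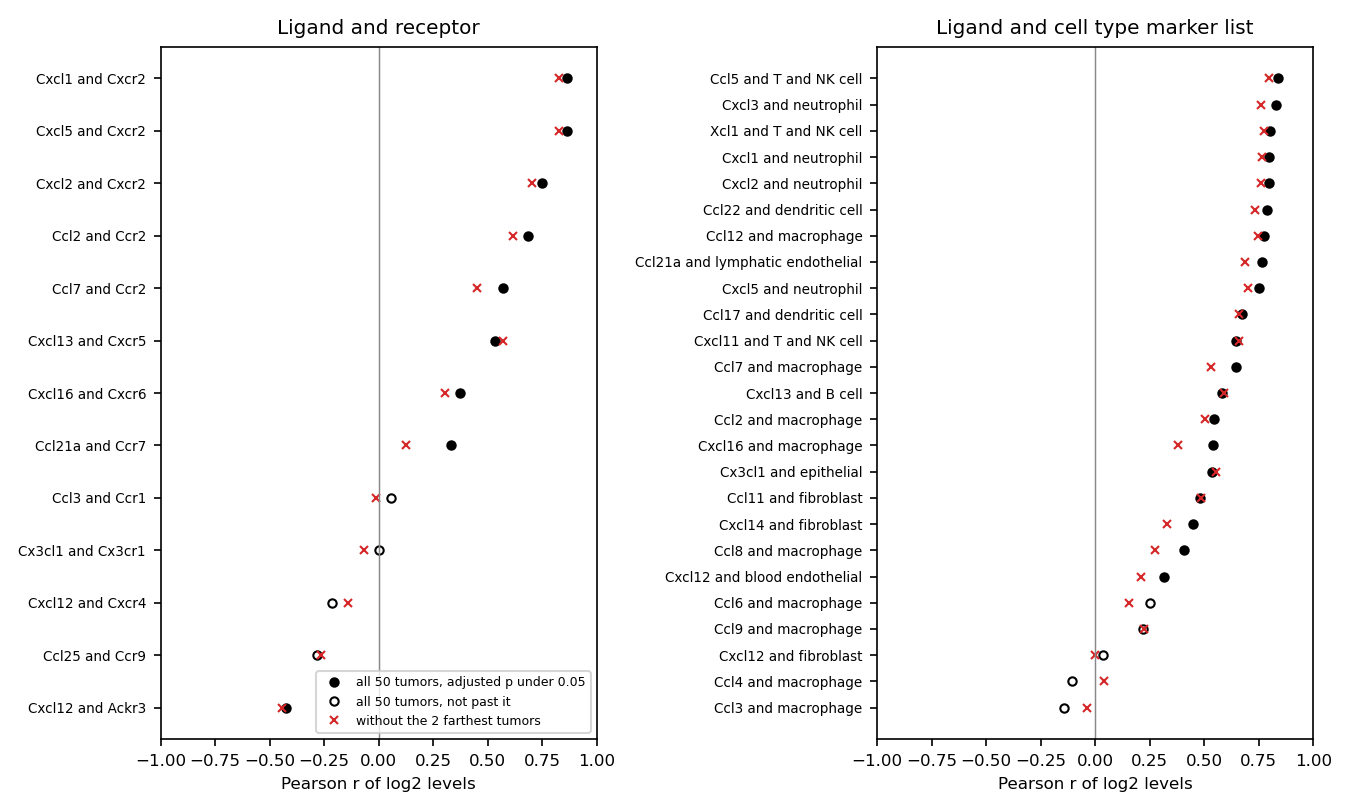
Pearson r of log2 levels over 50 tumors for ligand and receptor pairs (left) and ligand and marker list pairs (right). Filled circles passed an adjusted permutation p under 0.05, open circles did not, and red crosses give r without the 2 tumors farthest from the ligand's median. Cxcl1 and Cxcr2 (0.86) and Ccl5 and T and NK cell markers (0.84) have the highest r shown, and the pairs of Ccl19 and Cxcl17 are left out. The pair of Cxcl13 and Cxcr5 is shown although Cxcr5 reached the minimum level only through its highest tumor.

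The genes closest in pattern to the 10 most abundant members were listed by Pearson r over the 50 tumors among the tested genes other than chemokine ligands. Ccl12 was closest to Ms4a6b (r 0.90), Ms4a6c (0.89) and Emr1 (0.87), the last of which encodes the macrophage marker F4/80 and is in the macrophage list. Cxcl16 was closest to Lst1 (0.86), Zmynd15 (0.84) and AF251705 (0.82). Gm10872 (0.85) and Cxcr2 (0.83) were among the genes closest to Cxcl3. Ccl9 was closest to the macrophage gene Cd68 (0.79), Atp6v1b2 (0.73) and Spi1 (0.72), which encodes the myeloid factor PU.1. Cd68 is also in the macrophage list, whose averaged score had an r of 0.22 with Ccl9. F7 (0.72) and Gm16096 (0.70) were among the genes closest to Ccl6. Ccl2 was closest to Fam13c (0.73), B4galt6 (0.68) and Ccr2 (0.68), and Ccl7 to Ms4a6c (0.70), Clec4a1 (0.69) and Cds1 (0.69). Ccl8 was closest to Tmem8 (0.77), the complement gene C4b (0.75) and Dpt (0.74), Cxcl14 to the matrix genes Spon1 (0.74) and Svep1 (0.73) and to Gm15079 (0.73), and Cx3cl1 to Ltbp3 (0.74), Gcdh (0.70) and Shroom3 (0.70). The 99th percentile of r over all tested genes was between 0.43 (Cxcl14) and 0.64 (Cxcl16).

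**Figure D5:**
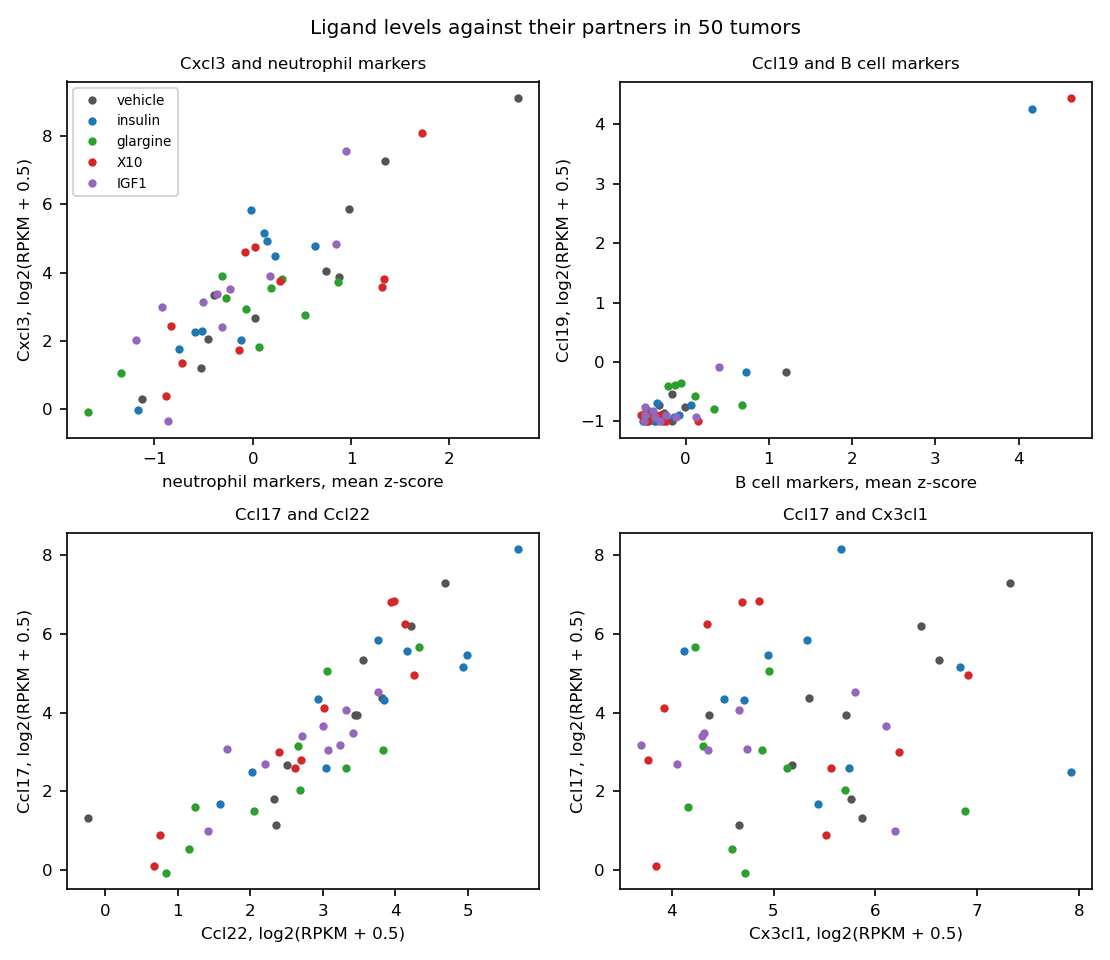
Log2(RPKM + 0.5) of a ligand in each of 50 tumors against the mean z-score of a marker list or another ligand, coloured by treatment group. Cxcl3 follows the neutrophil markers (r 0.83), Ccl19 is high only in X10_105 and insulin_8, Ccl17 follows Ccl22 (r 0.88) and not Cx3cl1 (r 0.11).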

How the data were processed

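Poly-A RNA of 50 tumors was sequenced on the Ion Proton. The authors aligned the reads with TopHat2 2.0.10 and Bowtie2 to GRCm38, counted them per gene with HTSeq 0.6.1 and deposited RPKM values, which keep no counts. For 4878 of 6000 drawn genes with low RPKM values, a length was found at which the deposited values lay on a grid, to within their rounding. Library sizes came from the number of grid steps per read, sought among a tumor's values of at most 90 grid steps. The search required at least 97% of these values to fall on the step nearest to a whole read. At the sizes taken the share was 97.6 to 100%, and that it exceeds 97% follows from this rule. The study's methods name DEXSeq for an RPKM table. Tumors were grouped by their titles, and 1 title that reads IFG1_132 was taken as IGF1.

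The 16733 genes whose mean RPKM reached 0.5 were tested with limma 3.58.1 (R 4.3.3) on log2(RPKM + 0.5) with all 5 groups and an intensity trend. Benjamini-Hochberg adjustment was over all tested genes. The fit was tested on simulated data. Permutation tests used 100000 resamples (Python 3.11.15, scipy 1.17.1). Coordinates were taken from GENCODE M21.

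Members, gene lists and pairs were chosen with earlier results of these data known. Named genes are the 10 with highest mean, the 5 with largest SD and the 2 with smallest p per comparison. Nothing states whether tumors of a group shared litters, so p-values measure the spread between these tumors. Alternatives are listed in the closing section. Results on some further genes of the lists and pairs are not reported here.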

Additional observations from a re-analysis of the deposited data

Results flagged for a closer look

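In each group of 10 tumors, the highest and lowest level of each tested ligand was compared with its nearest neighbour on the log2(RPKM + 0.5) scale (a gap over the group's range above Dixon's 95% critical value). Of 150 groups tested 23 had such a tumor, in 14 ligands and 14 tumors, where 7.5 are expected at the chance rate of 1 in 20. Ligands share tumors, so these are not independent. Ccl19 and Cxcl17 reached the minimum level only through their high tumors, and without them 17 of 140 groups had such a tumor, where 7 are expected.

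High single tumors were found for several ligands. Ccl24 was at 33.8 RPKM in vehicle_195 and 5.69 in X10_105. Cxcl13 was at 42.1 RPKM in X10_105 and 33.3 in IGF1_132. Cxcl11 was at 6.65 RPKM in glargine_78 and 8.44 in IGF1_136. Ccl19 was at 18.6 RPKM in insulin_8, 21.3 in X10_105 and 0.443 in IGF1_158. Ccl21b was at 9.88 RPKM in X10_105 and 2.31 in IGF1_135. Cxcl17 was at 21.1 RPKM in insulin_13, 0.867 in X10_105 and 0.184 in IGF1_145. Ccl27a was at 13.2 RPKM in IGF1_160.

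Low single tumors were found for others. Ccl8 was at 0.861 RPKM and Ccl22 at 0.350 RPKM in vehicle_161. Cxcl16 was at 17.8 RPKM in insulin_13 and 31.2 in X10_116. Ccl11 was at 1.802 RPKM in glargine_69. Ccl25 was at 1.48 RPKM and Cxcl1 at 0.850 RPKM in IGF1_158. Ccl17 was at 1.48 RPKM in IGF1_145.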

How the results depend on the processing

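No chemokine ligand passed an adjusted p under 0.05 in any comparison under other pseudocounts, filters, scalings, covariates or trend settings, nor without any one of the 50 tumors (range 0 to 0). Correlations were recomputed under 5 alternatives (both other pseudocounts, quantile normalization, centring within groups, and without the 2 farthest tumors). The count of ligand and receptor pairs past the threshold was between 9 and 12 and that of marker pairs between 20 and 22. Of the 32 pairs past the threshold, those of Ccl19 and that of Cxcl13 with Cxcr5 included, 28 kept it under each of these 5 and 0 reversed. The exceptions were Ccl21a and Ccr7 (r 0.24 at a pseudocount of 0.1, and 0.12 without 2 tumors), Cxcl16 and Cxcr6 (0.30), Ccl8 and macrophage markers (0.27), and Cxcl12 and blood endothelial markers (0.27 after quantile normalization, 0.21 without 2 tumors). The cause was not tested. The median SD of the ligands was between 1.01 and 1.32. The deposited values hold no read counts, and low ligands rest on few reads. No paired analysis was possible because the mouse numbers differ between all groups.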
